A study of Homo sapiens with 12 samples.

Results

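The regulators and markers of the epithelial-mesenchymal transition described here are 10 genes of the 23368 in the count table. They are a set named by symbol, and no measured value enters the rule, although earlier results of these data were known when the set was chosen: vimentin (VIM), the classical cadherins CDH1 and CDH2, the transcription factors SNAI1, SNAI2, ZEB1, ZEB2, TWIST1 and GRHL2, and the splicing factor ESRP1. All 10 were found, each under a single entry. Expression was measured by RNA-seq in MDA-MB-231 cells, an ER- basal breast cancer line, and in T47D cells, an ER+ luminal A breast cancer line. Both were grown for 3 days inside PEG hydrogels, synthetic matrices crosslinked with a peptide that cells can cleave, which carried either GFOGER, a peptide mimic of collagen, or IKVAV, a peptide mimic of laminin. All were in the study's soft, low-density matrix, and its denser matrix was not among these conditions. The libraries with counts were 3 of MDA-MB-231 cells with GFOGER, 2 of MDA-MB-231 cells with IKVAV, 3 of T47D cells with GFOGER and 3 of T47D cells with IKVAV. Each RNA replicate combined 3 hydrogels of 1 composition, released with collagenase before lysis. Each subtype is represented by a single line, the conditions compared here include no matrix without a mimic, and all cells were exposed to collagenase. A difference between lines is therefore a difference between these lines only.

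In epithelia, E-cadherin, the product of CDH1, joins neighbouring cells at adherens junctions. During an epithelial-mesenchymal transition the zinc-finger factors of the SNAI and ZEB families and the basic helix-loop-helix factor TWIST1 repress CDH1 through E-box motifs, while the intermediate filament protein vimentin and N-cadherin, the product of CDH2, increase. GRHL2 and ESRP1 act on the epithelial side: GRHL2 activates genes of cell junctions, and ESRP1 keeps the epithelial splice forms of transcripts such as those of FGFR2 and CD44. ZEB1, ZEB2 and the miR-200 family repress each other, which makes the loop a switch between the states.

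The sequences of that loop are shown first, since they are what ZEB1 and ZEB2 share in it. The miR-200 family falls into a pair of seed groups that differ by 1 base in the seed (bases 2 to 8, in capitals), and miR-205, often grouped with the family for its effect on ZEB1 and ZEB2, has an unrelated seed. The mature sequences below are from RefSeq, and their places in GRCh37 were found by exact match. The miR-200b, miR-200a and miR-429 loci lie together on chromosome 1 (chr1:1102540-1102561, chr1:1103296-1103317 and chr1:1104435-1104456), those of miR-200c and miR-141 on chromosome 12 (chr12:7072905-7072927 and chr12:7073318-7073339), and that of miR-205 at chr1:209605511-209605532, all on the plus strand.
hsa-miR-200b-3p: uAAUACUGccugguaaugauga
hsa-miR-200c-3p: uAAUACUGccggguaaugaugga
hsa-miR-429: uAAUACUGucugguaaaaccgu
hsa-miR-200a-3p: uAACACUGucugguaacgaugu
hsa-miR-141-3p: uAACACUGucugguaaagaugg
hsa-miR-205-5p: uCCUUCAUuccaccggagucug

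Letters complementary to the first seed, CAGTATT, occur 6 times in the 2549 bases of the longest annotated 3′UTR of ZEB1 and 5 times in the 5370 bases of that of ZEB2. Among genes with a 3′UTR at least as long as that of ZEB1, 3 of 4937 (0.0608%, ZEB1 included) hold 6 or more, and among those at least as long as that of ZEB2, 8 of 1222 (0.655%, ZEB2 included) hold 5 or more. The letters of the other family seed, CAGTGTT, occur 3 times in ZEB1 and 4 times in ZEB2, and as many are held by 4.15% and 4.01% of the genes with a 3′UTR at least as long. The miR-205 seed match ATGAAGG occurs 1 time in ZEB1 and 0 times in ZEB2. Over all 19281 genes with a 3′UTR, 16.9% hold CAGTATT, 19.2% hold CAGTGTT and 12.6% hold ATGAAGG at least 1 time. Of the other members, SNAI2 has 1 CAGTATT, GRHL2 has 1 CAGTGTT and ESRP1 has 1 of each, while VIM, CDH1, CDH2, SNAI1 and TWIST1 have none of the 3 motifs in this window. The CAGTATT sites are shown because ZEB1 and ZEB2 hold more of them than the remaining members do. A match is a description of letters and was not tested as a binding site. The 11 CAGTATT sites, with the match in capitals and the 15 bases before it, run in ZEB1 from chr10:31816546-31816568 (site 1) to chr10:31818141-31818163 (site 6) on the plus strand and in ZEB2 from chr2:145146619-145146641 (site 1) to chr2:145145982-145146004 (site 5) on the minus strand.
ZEB1 site 1: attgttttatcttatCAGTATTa
ZEB1 site 2: atgctaaatccgcttCAGTATTt
ZEB1 site 3: gtaagtgccatttctCAGTATTt
ZEB1 site 4: ctgatttttacctatCAGTATTa
ZEB1 site 5: tgtcttcaaacctggCAGTATTa
ZEB1 site 6: tcttttcatcattatCAGTATTt
ZEB2 site 1: cgcactaccatacatCAGTATTt
ZEB2 site 2: cgcactacaatgcatCAGTATTa
ZEB2 site 3: ttgaagcacccatgtCAGTATTa
ZEB2 site 4: gttcattaattttgtCAGTATTa
ZEB2 site 5: tcatactgtagtgtaCAGTATTa

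Promoter windows from 250 bases before to 50 bases after a transcription start were given by RefSeq (GRCh38 table) for 4 of the 10 genes, VIM, CDH2, ZEB1 and ZEB2. The E-box letters that SNAI and ZEB proteins recognise, CACCTG or its reverse complement CAGGTG, were searched in them, and 0 were found in the windows of VIM, CDH2 and ZEB2. Of the 7 windows of ZEB1, the one nearest to the start of the gene in the count table holds 3, another (chr10:31607096-31607395) holds 1 and the other 5 hold 0. Of those 3, 2 lie in the 206 bases before that start (chr10:31607895-31608100, GRCh37, plus strand). Of all 35116 windows, 20.6% hold at least 1 E-box, and in their first 206 bases 15.2% hold at least 1 and 1.94% at least 2. The stretch before the start of ZEB1 is printed, with the E-boxes in capitals, because ZEB1 differed widely between the lines. The letters were not tested as binding sites.
ZEB1 promoter: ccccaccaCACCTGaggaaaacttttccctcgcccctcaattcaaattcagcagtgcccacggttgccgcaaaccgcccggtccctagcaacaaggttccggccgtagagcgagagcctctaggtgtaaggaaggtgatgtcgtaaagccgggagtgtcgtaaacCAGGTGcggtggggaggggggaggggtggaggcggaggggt

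The libraries held 14338238 to 18452145 counted reads each. Levels are given in cpm, counts scaled to a common library total after TMM normalization, and 3 counts in a library corresponded to 0.171 to 0.203 cpm. Intervals and floors cover counting error only. The cell line labels were checked against marker genes. The summed level of the luminal markers ESR1, PGR, GATA3 and FOXA1 was 3094 to 3776 cpm in T47D libraries and 17.7 to 26.9 cpm in MDA-MB-231 libraries. The epithelial keratins KRT8, KRT18 and KRT19 were all detected in each library of both lines. They summed to 2610 to 3166 cpm in T47D libraries and 494 to 600 cpm in MDA-MB-231 libraries. Of 3 leukocyte markers, 2 had at most 10 counts in either line, and in MDA-MB-231 cells their summed level, nearly all CD68, was 343 to 463 cpm with GFOGER and 246 to 257 cpm with IKVAV. Of 3 endothelial markers, VWF was at or under 10 counts in MDA-MB-231 cells, where the sum was 26.8 to 28.1 cpm with GFOGER and 23.9 to 24.0 cpm with IKVAV. The 4 fibroblast markers summed to 16.3 to 20.3 cpm with GFOGER and 28.6 to 34.0 cpm with IKVAV in MDA-MB-231 cells, and to 52.6 to 62.7 cpm in T47D cells, where 3 of them had at most 10 counts. The part of these markers in the results was not tested. The RPKM values deposited beside the counts imply a low library total for MDA-MB-231 IKVAV replicate 1, for each T47D library with GFOGER and for T47D IKVAV replicate 3, so that this split runs partly along the groups. In these libraries the counted reads exceed the implied total, at 15719934 against 5191201 for MDA-MB-231 IKVAV replicate 1. The implied total is therefore not their sequencing depth. Fits with this split as a term are given where they change whether a member passed. Since RNA was extracted from all cells recovered from the hydrogels together, fewer cells with a transcript and less transcript per cell cannot be told apart. Adjusted p-values come from edgeR (quasi-likelihood F test) and were corrected by Benjamini and Hochberg's method over all genes tested. A gene is called when its adjusted p is below 0.05 and its fold change above 2. With replicates not stated to be independent cultures, these p-values measure the spread between the sequenced RNA replicates.

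The cell lines differed in 9 of the 10 genes, with either mimic. VIM, CDH2, SNAI2, ZEB1 and ZEB2 were higher in MDA-MB-231 cells, and CDH1, GRHL2, ESRP1 and TWIST1 were higher in T47D cells. With GFOGER, 5 of the 10 were called higher in MDA-MB-231 cells, where 23.7% of 15320 genes were, and 4 were called lower, where 23.2% were. With IKVAV the counts were 5 and 4 as well, against 23.6% and 22.3% of all genes. SNAI1 was not called with either mimic, and TWIST1 was on the side opposite to SNAI2, ZEB1 and ZEB2.

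**Figure D1:**
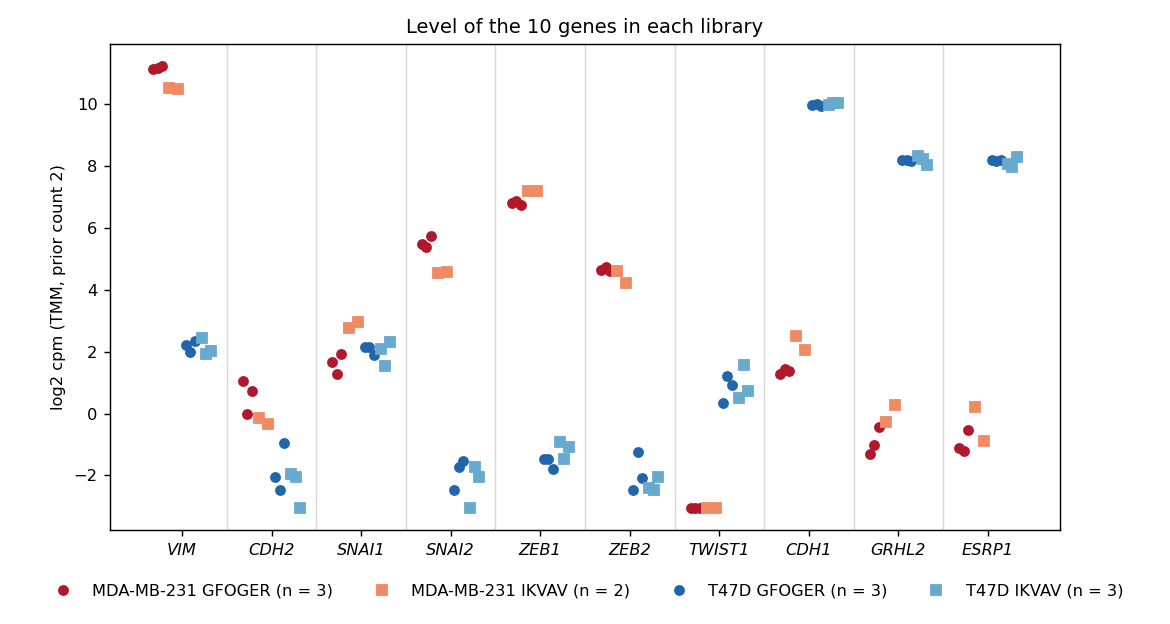
Level of each of the 10 genes (log2 cpm, TMM, prior count 2, vertical axis) in each of the 11 libraries, coloured by condition. VIM, SNAI2, ZEB1 and ZEB2 stand high in MDA-MB-231 cells, CDH1, GRHL2 and ESRP1 stand high in T47D cells, SNAI1 lies close together in both, and TWIST1 is at the lowest drawn value in the MDA-MB-231 libraries because it has 0 counts there.

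VIM encodes the intermediate filament protein of mesenchymal cells (chr10:17270258-17279592 in hg19). Its level was 2268, 2306 and 2417 cpm in the MDA-MB-231 libraries with GFOGER and 4.49, 3.87 and 4.95 cpm in the T47D libraries with GFOGER. With IKVAV it was 1482 and 1434 cpm in MDA-MB-231 cells and 5.29, 3.72 and 3.92 cpm in T47D cells. The lines did not overlap, and the log2 difference was 9.03 ± 0.123 (SE, adjusted p = 1.72e-21) with GFOGER and 8.41 ± 0.123 (adjusted p = 6.33e-21) with IKVAV. CDH1 (chr16:68771195-68869444) was the mirror image. It stood at 1017, 1033 and 996 cpm in T47D cells with GFOGER and at 1009, 1050 and 1047 cpm with IKVAV. In MDA-MB-231 cells it was detected in every library, at 2.29, 2.59 and 2.45 cpm with GFOGER and at 5.51 and 4.04 cpm with IKVAV. The log2 difference of MDA-MB-231 relative to T47D was -8.70 ± 0.115 (adjusted p = 1.47e-21) with GFOGER and -7.76 ± 0.130 (adjusted p = 3.00e-20) with IKVAV.

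CDH2, the other classical cadherin of the group (chr18:25530930-25757445), was low in both lines. It had 34, 14 and 27 counts in MDA-MB-231 cells with GFOGER, 12 and 11 with IKVAV, and 0 to 7 counts in the 6 T47D libraries. The summed counts gave a ratio of MDA-MB-231 to T47D of 7.47 with GFOGER (95% exact counting interval 3.85 to 16.2) and 8.62 with IKVAV (2.94 to 34.3). These differences were called (adjusted p = 0.000117 and 0.00243). In MDA-MB-231 cells the level of CDH1 per length was above that of CDH2 in every library, at 1.07, 2.72 and 1.44 times with GFOGER and at 6.42 and 5.52 times with IKVAV. High VIM in these cells stood beside low levels of both cadherin transcripts.

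Among the factors that repress CDH1, ZEB1 (chr10:31608101-31818742) had the largest ratio of counts between the lines, with intervals that overlapped those of SNAI2 and ZEB2. It had 1871 to 1977 counts in the MDA-MB-231 libraries with GFOGER, 2267 and 2449 with IKVAV, and 3 to 6 counts in each T47D library. The ratio of the summed counts was 520 with GFOGER (95% exact counting interval 290 to 1042) and 442 with IKVAV (272 to 773). SNAI2 (chr8:49830239-49833999), which encodes Slug, had 361 to 937 counts in MDA-MB-231 libraries and 0 to 4 in T47D libraries, with ratios of 297 (151 to 689) and 227 (96.7 to 699.7). ZEB2 (chr2:145141942-145277958) had 306 to 437 counts in MDA-MB-231 libraries and 1 to 5 in T47D libraries, with ratios of 161 (81.4 to 374) and 255 (99.3 to 940). The antisense gene ZEB2-AS1 overlaps ZEB2 and had 0 counts in every library. All 3 were called in both mimics, with adjusted p between 4.86e-20 for ZEB1 with GFOGER and 1.17e-14 for ZEB2 with IKVAV.

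SNAI1 (chr20:48599513-48605420), which encodes Snail, was detected in every library of both lines. It stood at 3.03, 2.28 and 3.64 cpm in MDA-MB-231 cells and at 4.37, 4.29 and 3.59 cpm in T47D cells with GFOGER, with a log2 difference of -0.44 ± 0.233 (adjusted p = 0.0878) and overlapping libraries. The difference passed at any fold with upper-quartile normalization (-0.54, adjusted p = 0.0377) and with library size alone (-0.54, adjusted p = 0.0381). Without MDA-MB-231 GFOGER replicate 3 it was -0.60 (adjusted p = 0.0422). Over the alternatives the difference of SNAI1 was between -0.60 and -0.29. With IKVAV it stood at 6.67 and 7.65 cpm in MDA-MB-231 cells and at 4.14, 2.81 and 4.81 cpm in T47D cells. There the libraries did not overlap, and the log2 difference of 0.87 ± 0.240 passed at any fold (adjusted p = 0.00278) but not at 2-fold. At any fold 77.3% of all genes passed in this comparison. Without T47D IKVAV replicate 3 the difference was 1.05 (adjusted p = 0.000802) and was called.

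TWIST1 (chr7:19155091-19157295) had 0 counts in all 5 MDA-MB-231 libraries and was detected in every T47D library, with 19, 37 and 31 counts with GFOGER and 19, 47 and 26 with IKVAV. In cpm this was 1.70 ± 0.536 with GFOGER and, with IKVAV, 1.90 ± 0.847 (SD, n = 3 each). Against a floor of 3 counts in each MDA-MB-231 library, TWIST1 was at least 9.68-fold higher in T47D cells with GFOGER and at least 10.1-fold higher with IKVAV. TWIST2, its paralog, had 0 counts in every library of both lines.

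GRHL2 (chr8:102504668-102681952), the activator of epithelial junction genes, had 4449 to 5077 counts in T47D libraries and 5 to 18 in MDA-MB-231 libraries. The ratio of T47D to MDA-MB-231 was 685 with GFOGER (95% exact counting interval 452 to 1093) and 324 with IKVAV (225 to 484). ESRP1 (chr8:95653364-95719694), the epithelial splicing factor, had 3945 to 5325 counts in T47D libraries and 5 to 16 in MDA-MB-231 libraries, with ratios of 714 (467 to 1154) and 389 (259 to 615). Both were called with either mimic, with adjusted p of 2.12e-20 for GRHL2 and 7.89e-20 for ESRP1 with GFOGER, and of 6.16e-19 and 2.72e-18 with IKVAV.

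The gene rows of the microRNAs shown above held reads almost only in T47D cells. MIR205HG, the host transcript of miR-205, had 83 to 109 counts in T47D libraries and 0 in each MDA-MB-231 library. In T47D libraries MIR429 had 6 to 9 counts, MIR200B 1 to 8, MIR141 1 to 5, MIR200A 1 to 3, MIR205 1 to 7 and MIR200C 0 to 1. All of these rows were at 0 in the MDA-MB-231 libraries, except MIR429 with 1 count in GFOGER replicate 1. These are reads of poly(A) libraries on gene rows and do not measure mature microRNAs. Apart from MIR205HG the rows were too low to be tested.

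Per length (cpm per kb of the table's gene length), the order of the members in T47D cells with GFOGER was CDH1 at 211 ± 3.83, ESRP1 at 76.9 ± 1.35 and GRHL2 at 56.2 ± 0.822 (SD, n = 3 each), followed by SNAI1 at 2.39 ± 0.251, VIM at 2.08 ± 0.255 and TWIST1 at 1.02 ± 0.322. Among these only SNAI1 and VIM overlapped. SNAI2, CDH2, ZEB1 and ZEB2 were between 0.0135 and 0.0737 cpm per kb, on 7 counts or fewer in each library, and their order cannot be read. With IKVAV the order of the means in T47D cells was the same down to TWIST1, but SNAI1 overlapped with both VIM and TWIST1.

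In MDA-MB-231 cells the order per length depended on the mimic. With GFOGER it was VIM at 1091 ± 36.3 cpm per kb, SNAI2 at 22.0 ± 2.93, ZEB1 at 17.5 ± 0.800, ZEB2 at 2.17 ± 0.0928, SNAI1 at 1.75 ± 0.399, CDH1 at 0.507 ± 0.0320 and CDH2 at 0.332 ± 0.125 (SD, n = 3 each), with ESRP1 at 0.107 ± 0.0372 and GRHL2 at 0.0818 ± 0.0339 below them. ZEB2 and SNAI1 overlapped, as did ESRP1 and GRHL2. With IKVAV, VIM was again first at 683 ± 15.8 (SD, n = 2), but ZEB1 at 23.0 ± 0.0810 stood above SNAI2 at 11.2 ± 0.140, and SNAI1 at 4.20 ± 0.407 stood above ZEB2 at 1.84 ± 0.359. ESRP1, GRHL2 and CDH2 overlapped at the lower end.

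Whether the collagen or the laminin mimic altered these genes was asked within each line. In MDA-MB-231 cells, VIM and SNAI2 were higher with GFOGER, and SNAI1, CDH1 and ZEB1 were higher with IKVAV. Of the 10 genes, 8 were tested, and ESRP1 and TWIST1 had too few counts. SNAI1 was the 1 gene called at 2-fold, where 9.57% of 14092 genes were called, and 5 of 8 passed at any fold, where 42.9% of all genes did. Libraries of the mimics did not overlap for 3 genes that were higher with GFOGER (VIM, CDH2 and SNAI2) and for 4 that were lower (SNAI1, CDH1, ZEB1 and GRHL2). Over all genes tested, 32.5% were higher and 30.7% lower without overlap, beside 3 and 4 of the 8 members.

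**Figure D2:**
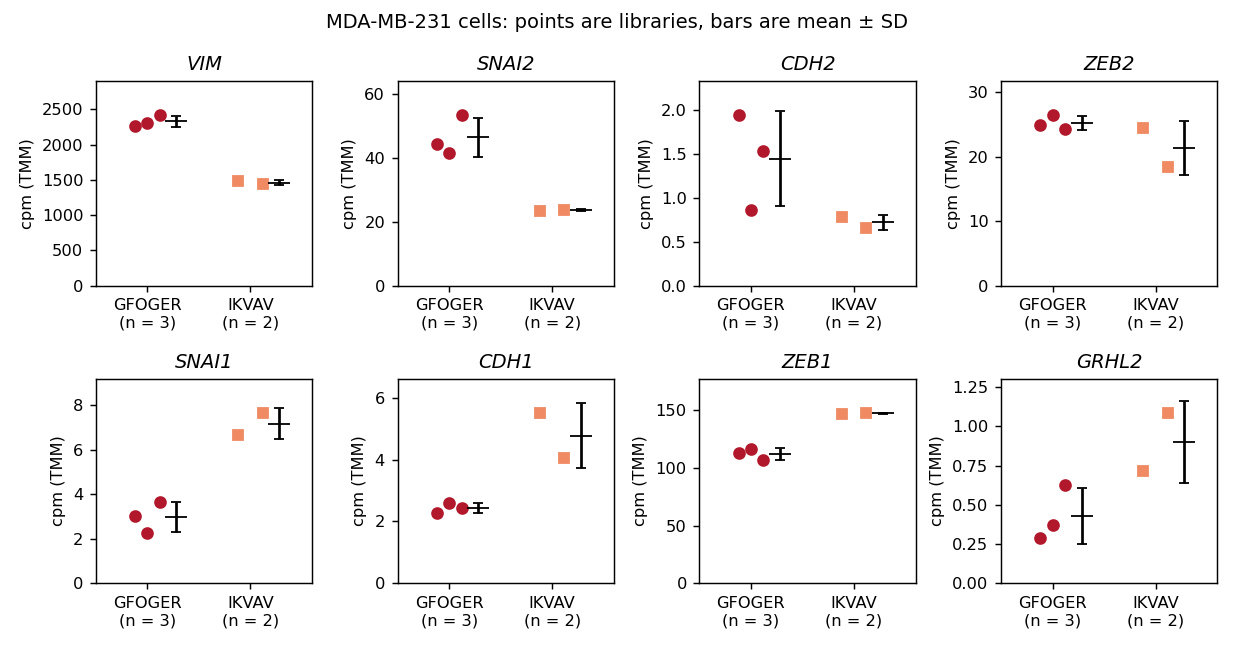
Level (cpm, TMM, linear axis from 0) of the 8 tested genes in each MDA-MB-231 library with GFOGER (n = 3) or IKVAV (n = 2), with the mean and SD in black. VIM, SNAI2 and CDH2 are higher with GFOGER, SNAI1, CDH1, ZEB1 and GRHL2 are lower, each without overlap of the libraries, and the ZEB2 libraries overlap.

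The SNAI paralogs went in opposite directions. SNAI2 stood at 44.5, 41.5 and 53.4 cpm with GFOGER and at 23.4 and 23.8 cpm with IKVAV, a log2 fold change of 0.97 ± 0.132 (SE, adjusted p = 2.29e-05). SNAI1 stood at 3.03, 2.28 and 3.64 cpm with GFOGER and at 6.67 and 7.65 cpm with IKVAV, a log2 fold change of -1.27 ± 0.233 (adjusted p = 0.000389). Every GFOGER library was above both IKVAV libraries for SNAI2 and below both for SNAI1. The level of SNAI2 per length was 11.9, 14.7 and 11.8 times that of SNAI1 in the GFOGER libraries and 2.84 and 2.52 times in the IKVAV libraries. SNAI1 had 37 to 64 counts in the GFOGER libraries and 103 and 127 in the IKVAV libraries, and with the 2-fold threshold inside the test its adjusted p was 0.749, in a range of 4.11e-07 to 0.749 over the alternatives.

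The ZEB factors showed smaller differences. ZEB1 stood at 113, 117 and 107 cpm with GFOGER and at 147 and 148 cpm with IKVAV, a log2 fold change of -0.40 ± 0.0934 (adjusted p = 0.00246). Without MDA-MB-231 IKVAV replicate 2 the log2 fold change was -0.39 and did not pass. Over the alternatives it was between -0.44 and -0.36. Among them the 2-fold threshold inside the test was not passed, as no change below 2-fold can pass it. ZEB2 stood at 24.97, 26.4 and 24.3 cpm with GFOGER and at 24.4 and 18.4 cpm with IKVAV. The libraries overlapped, and the log2 fold change of 0.23 ± 0.143 did not pass (adjusted p = 0.203). ZEB1 per length was at most 8.25 times ZEB2 with GFOGER and at most 14.6 times with IKVAV. TWIST1 was at 0 with both mimics.

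Of the effector genes, VIM fell from 2330 ± 77.6 cpm (SD, n = 3) with GFOGER to 1458 ± 33.7 cpm (SD, n = 2) with IKVAV, a log2 fold change of 0.67 ± 0.0728 in favour of GFOGER (adjusted p = 2.19e-06). CDH1 was higher with IKVAV, at 4.77 ± 1.04 cpm (SD, n = 2) against 2.44 ± 0.154 cpm (SD, n = 3), a log2 fold change of -0.97 ± 0.256 (adjusted p = 0.00594). On the count scale this was 85 and 67 reads against 40, 42 and 43. The per-length ratio of VIM to CDH1 was 2237, 2004 and 2226 with GFOGER and 607 and 801 with IKVAV. For CDH1 the log2 fold change was -0.73 (adjusted p = 0.102) without MDA-MB-231 IKVAV replicate 1 and -0.74 (adjusted p = 0.0912) with the implied library totals as a term, which in this line sets the same library apart. Over the alternatives the log2 fold change of CDH1 was between -1.17 and -0.73. The 2-fold threshold inside the test, which a change below 2-fold cannot pass, was not passed. CDH2 stood at 1.94, 0.864 and 1.54 cpm with GFOGER and at 0.777 and 0.663 cpm with IKVAV, and its log2 fold change of 1.00 ± 0.466 did not pass (adjusted p = 0.0936).

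The epithelial regulators were close to the floor in this line. GRHL2 had 5, 6 and 11 counts with GFOGER and 11 and 18 with IKVAV, and its log2 fold change of -1.07 ± 0.535 did not pass (adjusted p = 0.118). ESRP1 had 6, 5 and 10 counts with GFOGER and 16 and 7 with IKVAV. Leaving out MDA-MB-231 GFOGER replicate 2 raised the number of members called from 1 to 4, since SNAI2 (1.04, adjusted p = 3.96e-08), CDH2 (1.25, adjusted p = 0.0369) and CDH1 (-1.02, adjusted p = 0.00675) then passed 2-fold. Leaving out IKVAV replicate 2 added CDH1 (-1.17, adjusted p = 0.0111). Each fit without an IKVAV library leaves 1 in that group, so that its spread comes from the GFOGER libraries alone and the lone library is assumed to vary like them.

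In T47D cells, 6 of the 10 genes were tested and 0 were called, where 0.0220% of 13642 genes were called and 0.0440% passed at any fold. At an unadjusted p below 0.05 there were 0 of the 6 members and 1531 of the 13642 genes, and 0 members were called with DESeq2. The libraries of the mimics overlapped for all 6, where 8.32% of all genes were higher and 7.73% lower without overlap. CDH1 was at 1015 ± 18.4 cpm with GFOGER and 1035 ± 22.6 cpm with IKVAV (SD, n = 3 each), a log2 fold change of -0.03 ± 0.0693 (SE). GRHL2 was at 294 ± 4.30 and 294 ± 27.7 cpm, a log2 fold change of -0.0011 ± 0.0818, and ESRP1 at 293 ± 5.15 and 279 ± 33.03 cpm, a log2 fold change of 0.07 ± 0.0865. The standard errors of these 3 abundant genes were the smallest among the 6.

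The low members of T47D cells were measured less well. VIM was at 4.44 ± 0.544 and 4.31 ± 0.853 cpm (log2 fold change 0.05 ± 0.205), SNAI1 at 4.08 ± 0.429 and 3.92 ± 1.02 cpm (0.06 ± 0.225) and TWIST1 at 1.70 ± 0.536 and 1.90 ± 0.847 cpm (-0.16 ± 0.349), with GFOGER first in each pair (SD, n = 3). ZEB1, ZEB2, SNAI2 and CDH2 were not tested in T47D cells, with at most 7 counts in any library, and a difference between the mimics was not detectable at this depth.

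**Figure D3:**
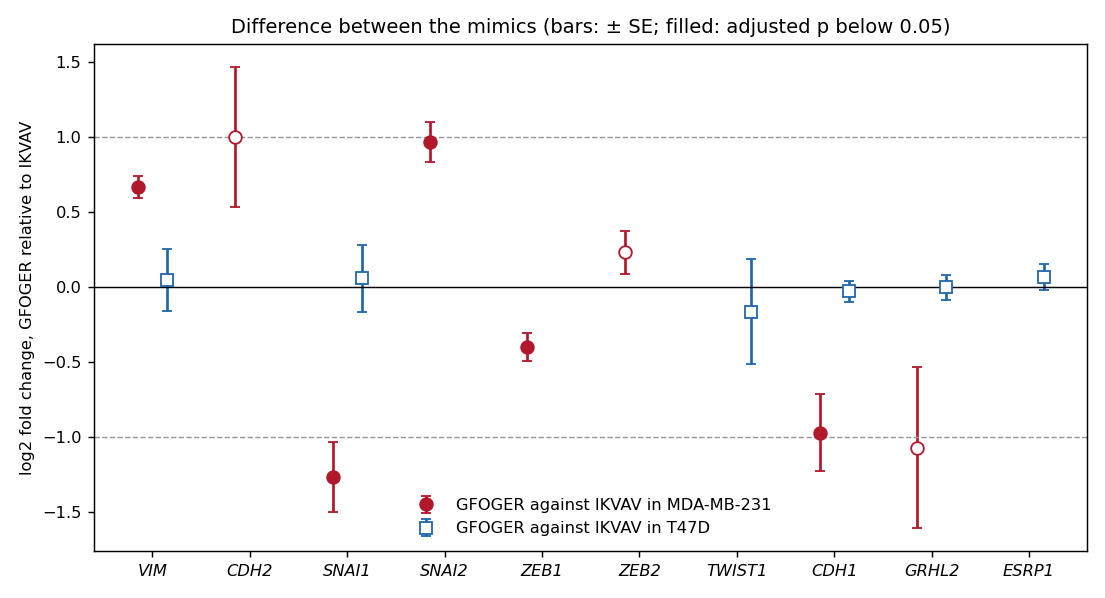
Log2 fold change of GFOGER relative to IKVAV (vertical axis, bars ± SE of the fit) for each tested gene in MDA-MB-231 cells (red circles) and T47D cells (blue squares). Filled symbols have an adjusted p below 0.05, dashed lines mark 2-fold, and all T47D values lie between -0.16 and 0.07.

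Whether the lines responded differently to the mimic was asked with an interaction term in a fit of all 11 libraries. SNAI1 was the 1 member called, where 6.42% of 15320 genes were, and 3 of 10 passed at any fold, where 21.0% did. The mimic response of SNAI1 was lower in MDA-MB-231 than in T47D cells by a log2 value of -1.31 ± 0.335 (SE, adjusted p = 0.00862). The response of CDH1 differed by -0.93 ± 0.175 (adjusted p = 0.000906) and that of VIM by 0.62 ± 0.170 (adjusted p = 0.0132). For CDH1 a single estimate of spread is shared between MDA-MB-231 libraries of 40 to 85 counts and T47D libraries of 14890 to 17637. In the fit of MDA-MB-231 cells alone the standard error of its mimic difference was larger, at 0.256. For SNAI1 the value with the library totals implied by the RPKM values as a term was -1.14 (adjusted p = 0.0618), in a range of 0.000978 to 1 over the alternatives. For VIM the value was 0.60 (adjusted p = 0.0622) with the same term, 0.59 (adjusted p = 0.0560) without MDA-MB-231 IKVAV replicate 2 and 0.45 (adjusted p = 0.0691) without T47D IKVAV replicate 1, in a range of 0.00361 to 1 for the adjusted p.

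GRHL2 was the next member in this test, at -1.06 ± 0.383 (adjusted p = 0.0550). GRHL2 shares its spread in the same way, on 5 to 18 counts in MDA-MB-231 libraries and 4449 to 5077 in T47D libraries. It was called with the implied totals as a term (-1.35, adjusted p = 0.0172), so that under that term GRHL2 was the member called in place of SNAI1. It was also called without MDA-MB-231 GFOGER replicate 3 (-1.45, adjusted p = 0.0173) and without T47D IKVAV replicate 1 (-1.14, adjusted p = 0.0366), and CDH1 was called without MDA-MB-231 IKVAV replicate 2 (-1.16, adjusted p = 0.000793). GRHL2 was called as well with DESeq2 (-1.09, adjusted p = 0.0473) and without a filter (-1.08, adjusted p = 0.0414). Over the alternatives its value was between -1.45 and -0.73, and it did not pass with the 2-fold threshold inside the test. ESRP1 at -0.87 ± 0.451 (adjusted p = 0.183) did not pass. For SNAI2, ZEB1, ZEB2 and CDH2 the interaction rested on T47D libraries with 0 to 7 counts, with standard errors of 0.418 to 0.929, and did not pass. TWIST1, at 0 in MDA-MB-231 cells, gives no response there.

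The wider set of epithelial-mesenchymal genes was described with 7 lists of 103 genes. Epithelial effector genes, which build junctions, polarity and apical membrane, were mostly lower in MDA-MB-231 cells. With either mimic 17 of 18 were called lower, where 23.2% of all genes were with GFOGER and 22.3% with IKVAV. Their median log2 difference was -4.14 with GFOGER and -3.46 with IKVAV, where the median over all genes tested was 0.01 and -0.02. RAB25, a trafficking GTPase of epithelia, was at 137 ± 7.87 cpm with GFOGER in T47D cells (SD, n = 3) and had 1 to 4 counts in the MDA-MB-231 libraries. MARVELD3, a tight junction protein, was at 51.8 ± 2.40 cpm against 0 to 3 counts, and PRSS8, a membrane protease, at 75.4 ± 8.02 cpm against 4 to 13 counts. Epithelial regulators were more mixed, with 8 of 11 called lower and 2 higher with GFOGER, and 7 lower and 1 higher with IKVAV. Beside the shares called lower just given, 23.7% of all genes were called higher with GFOGER and 23.6% with IKVAV. ELF5, a factor of luminal progenitors, was at 176 ± 6.14 cpm in T47D cells with GFOGER and had 2 to 7 counts in the MDA-MB-231 libraries, while OVOL1 and OVOL2, repressors of ZEB1, were at 10.1 ± 0.835 and 7.34 ± 0.757 cpm against 0 to 2 counts.

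Mesenchymal effector genes were higher in MDA-MB-231 cells for 17 of 22 tested with either mimic, with 4 called lower with GFOGER and 5 with IKVAV and medians of 7.43 and 7.16. With GFOGER, CAV1, a caveolar coat protein, was at 492 ± 49.0 cpm in MDA-MB-231 cells and 0.544 ± 0.250 cpm in T47D cells (SD, n = 3 each). NT5E, the ectonucleotidase CD73, was at 814 ± 61.8 against 0.764 ± 0.119 cpm, and LOXL2, a lysyl oxidase, at 521 ± 51.6 against 0.602 ± 0.307 cpm. The 4 called lower with GFOGER were COL1A1, VCAN, ACTA2 and TAGLN. COL1A1 was at 11.5 ± 2.29 against 59.6 ± 3.08 cpm and VCAN at 1.26 ± 0.264 against 13.3 ± 1.49 cpm. Of 16 mesenchymal regulators outside the 10 genes, 7 were called higher and 4 lower with GFOGER, and 8 and 4 with IKVAV, where 23.7% and 23.6% of all genes were higher and 23.2% and 22.3% lower. FOXQ1 was at 83.1 ± 7.97 cpm in MDA-MB-231 cells with GFOGER and had 1 count in each T47D library. ETS1 was at 394 ± 9.94 against 0.545 ± 0.191 cpm and HMGA2, an architectural chromatin protein, at 125 ± 7.89 against 0.235 ± 0.119 cpm. The 4 regulators called lower with GFOGER were KLF8, SOX4, GSC and PRRX2. KLF8 was at 2.92 ± 0.798 against 61.2 ± 4.24 cpm and SOX4 at 30.2 ± 0.486 against 121 ± 5.09 cpm. With IKVAV, SOX4 was called higher in MDA-MB-231 cells.

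Among the other cadherins and catenins, CDH11 had the largest average difference. In MDA-MB-231 cells this mesenchymal cadherin was at 366 ± 11.7 cpm with GFOGER (SD, n = 3) and, with IKVAV, at 665 ± 9.03 cpm (SD, n = 2), against 0.413 ± 0.162 and 0.459 ± 0.0384 cpm in T47D cells. CDH3, the P-cadherin gene, was at 87.7 ± 4.79 cpm in T47D cells with GFOGER and 0.499 ± 0.273 cpm in MDA-MB-231 cells, and CDH8 had 22 to 52 counts in T47D libraries and 0 to 1 in MDA-MB-231 libraries. In this list 3 of 10 tested genes were called higher and 5 lower with GFOGER, and 4 and 5 with IKVAV. Of all genes, 23.7% were called higher and 23.2% lower with GFOGER, and 23.6% and 22.3% with IKVAV. Of the splicing factors, 3 of 9 were called higher and 1 lower with either mimic, beside the same shares of all genes. ESRP2, the paralog of ESRP1, was at 227 ± 7.72 cpm in T47D cells and 6.45 ± 0.380 cpm in MDA-MB-231 cells with GFOGER, with 67 to 121 counts in the MDA-MB-231 libraries. RBFOX2 and QKI, which promote mesenchymal splice forms, were higher in MDA-MB-231 cells by a log2 difference of 1.92 ± 0.0817 and 2.11 ± 0.0793 with GFOGER (adjusted p = 1.75e-14 and 2.23e-15).

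**Figure D4:**
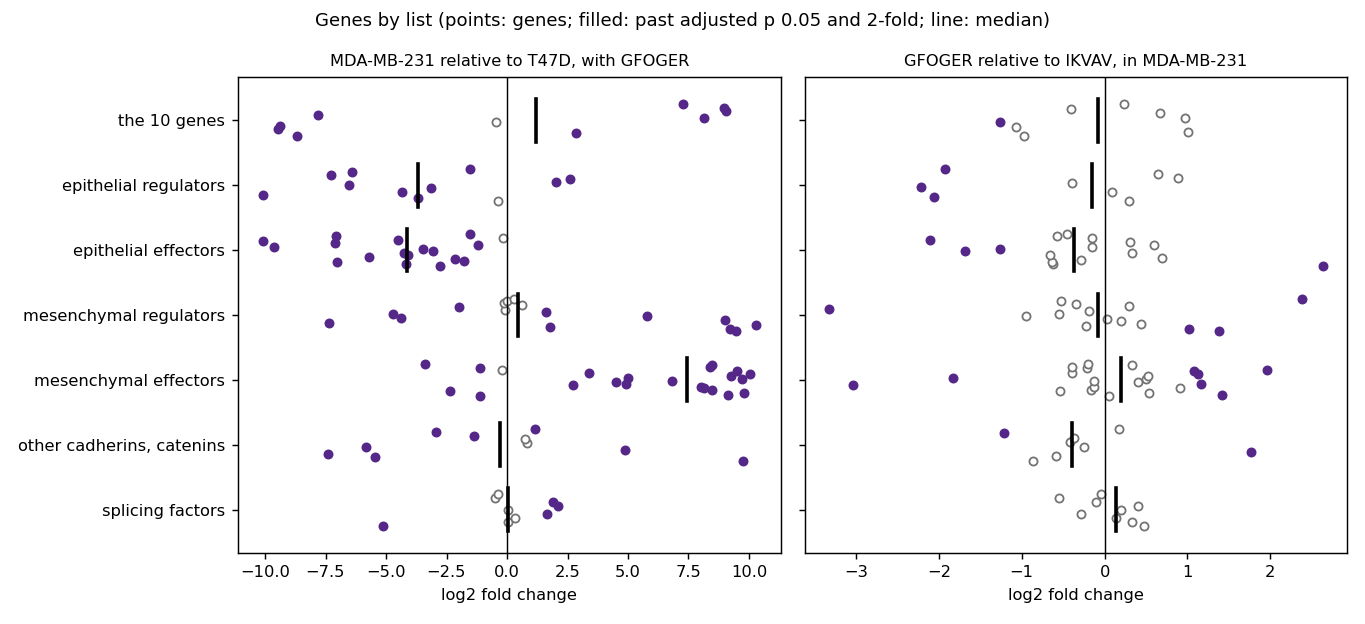
Log2 fold change (horizontal axis) of each tested gene of the 10 members and of 6 lists, for MDA-MB-231 relative to T47D cells with GFOGER (left) and for GFOGER relative to IKVAV in MDA-MB-231 cells (right). Filled points passed the adjusted p and 2-fold, vertical lines mark each median, and fitted values of genes with counts near 0 in 1 group, TWIST1 included, depend on the prior count of the fit. Epithelial effectors lie mostly left and mesenchymal effectors mostly right of 0 between the lines, while between the mimics each list spreads to both sides.

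Between the mimics in MDA-MB-231 cells the lists split internally. Over all genes tested 3.12% were called higher with GFOGER and 6.46% lower. Of the mesenchymal effector genes, 5 of 22 were called higher and 2 lower, with a median log2 fold change of 0.19. AXL, a receptor tyrosine kinase, was higher with GFOGER by 1.42 ± 0.0948 (SE, adjusted p = 7.90e-09) and SPARC, a matricellular protein, by 1.96 ± 0.551 on 3 to 27 counts (adjusted p = 0.00868). FN1, which encodes fibronectin, was lower with a log2 fold change of -3.04 ± 0.0696 (adjusted p = 1.52e-14), at 762 ± 8.86 cpm against 6224 ± 108 cpm, and MMP2 was lower with a log2 fold change of -1.82 ± 0.595 on 2 to 16 counts (adjusted p = 0.0207). VIM and FN1, both mesenchymal markers, differed in opposite directions.

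The remaining mesenchymal regulators had 3 of 14 called higher and 1 lower, with a median of -0.08. SOX4, an SRY-box transcription factor, was lower with GFOGER with a log2 fold change of -3.32 ± 0.0943 (adjusted p = 2.68e-13), at 30.2 ± 0.486 cpm (SD, n = 3) against 300.3 ± 7.67 cpm (SD, n = 2). TCF4, the E2-2 factor, was higher by 2.38 ± 0.513 on 4 to 26 counts (adjusted p = 0.00139), ETS1 by 1.39 ± 0.0883 (adjusted p = 4.69e-09) and FOSL1, an AP-1 subunit, by 1.02 ± 0.112 (adjusted p = 2.31e-06).

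On the epithelial side, 3 of 8 regulators were called lower with GFOGER and 0 higher at 2-fold, while at any fold 3 were lower and 3 higher, with a median of -0.15. The 3 that were higher, named after their values were seen, were the Krüppel-like factors KLF4 (0.89, adjusted p = 2.63e-06) and KLF5 (0.64, adjusted p = 0.000640) and the ETS factor EHF (0.29, adjusted p = 0.0181). GRHL3, a paralog of GRHL2, was lower with a log2 fold change of -2.21 ± 0.387 (adjusted p = 0.000250), with 6 to 25 counts against 68 to 71. ELF3 was lower with a log2 fold change of -2.06 ± 0.161 (adjusted p = 4.71e-08) and TP63, the gene of the basal factor p63, with one of -1.92 ± 0.375 (adjusted p = 0.000624). Of 16 epithelial effector genes tested, 3 were called lower and 1 higher, with a median of -0.37. SPINT1, a protease inhibitor, was lower with a log2 fold change of -2.11 ± 0.126 (adjusted p = 2.30e-09), LLGL2, a polarity protein, with one of -1.68 ± 0.178 (adjusted p = 1.58e-06) and MAL2, a transcytosis protein, with one of -1.26 ± 0.119 (adjusted p = 4.38e-07), while AP1M2, a clathrin adaptor subunit of polarized cells, was higher by 2.63 ± 0.207 (adjusted p = 5.21e-08). The cadherin list held CDH4, higher by 1.77 ± 0.178 (adjusted p = 9.25e-07), and JUP, which encodes plakoglobin, lower with a log2 fold change of -1.21 ± 0.106 (adjusted p = 1.91e-07). Of 9 splicing factors 0 were called at 2-fold and 4 passed at any fold, near the 42.9% of all genes. In T47D cells 0 genes of any list passed at any fold, where 0.0440% of all 13642 genes did.

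The genes whose pattern over the 11 libraries was most like that of a member were found by distance of centred log2 cpm among 11142 genes. Pearson's r, a description over libraries that share line and mimic, was between 0.998 and 0.999. VIM was followed by MSN, which encodes moesin, then COL13A1 and COL4A2. In MDA-MB-231 cells MSN was at 1333 ± 128 cpm with GFOGER (SD, n = 3) and, with IKVAV, at 922 ± 6.59 cpm (SD, n = 2), and it was at 2.14 ± 0.510 and 2.52 ± 0.428 cpm in T47D cells. ZEB1 was followed by DNAH2, SLC37A2 and CST1, and DNAH2, an axonemal dynein, was at 176 ± 16.0 and 268 ± 11.9 cpm in MDA-MB-231 cells and below 1 cpm in T47D cells on average. CDH1 was followed by PVRL4, which encodes the adhesion protein nectin-4, then CBFA2T3 and CRABP2, with PVRL4 at 97.2 ± 3.78 and 101 ± 4.88 cpm in T47D cells and 0.119 ± 0.0642 and 0.310 ± 0.0725 cpm in MDA-MB-231 cells. ESRP1 was followed by the luminal factors FOXA1 and PGR and by VAV3, with FOXA1 at 554 ± 3.86 and 533 ± 66.3 cpm in T47D cells and 0.713 ± 0.356 and 1.34 ± 1.04 cpm in MDA-MB-231 cells.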

How the data were processed

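The authors trimmed single-end reads of stranded poly(A) libraries, aligned them to hg19 and deposited read counts per gene together with RPKM values. Per the submitters' processing notes the tools included Trim Galore 0.4.4, TopHat2 2.1.0, HTSeq 0.6.1p1 and edgeR 3.16.5. The annotation and strand option of the counting are not given in the sources used here. The deposited counts are whole reads without normalization, and the deposited RPKM values were used only for the library totals they imply, at most 5774966 for 5 libraries and at least 19898878 for 6. The third IKVAV replicate of MDA-MB-231 cells, which the study left out for quality, was not analysed here, which left 11 of 12 samples. Of 24656 entries, 1288 repeated a symbol and were left out.

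Counts were analysed with R 4.3.3 and edgeR 4.0.16 (TMM, filterByExpr, quasi-likelihood test), each line on its own for the mimics and all 4 conditions together for cell line contrasts and the interaction. The standard error is the absolute log2 fold change divided by the root of the F statistic. Log2 cpm had a prior count of 2. Ratios of summed counts carry exact Clopper-Pearson intervals at 95%, scaled by normalized library totals. The fits of the mimics and of the lines with GFOGER were tested on simulated data, with changes above 2-fold in well-counted genes. That simulation did not cover the interaction, the lines with IKVAV, smaller changes or genes with few counts. Seed matches were counted in the longest 3′UTR per gene of GENCODE on GRCh37, and RefSeq promoter windows of 300 bases (GRCh38 table) were placed on GRCh37 by exact match. The members and gene lists were chosen with earlier results of these data known. The text names all members, up to 4 called genes per list with the largest mimic difference in MDA-MB-231 cells, up to 3 per list with the largest average cell line difference, and the 3 nearest patterns of VIM, CDH1, ZEB1 and ESRP1. TWIST2, the microRNA rows below MIR205HG and the mesenchymal list genes lower in MDA-MB-231 cells were added after their values were seen. Alternatives were DESeq2 1.42.0, other normalizations, filters and thresholds, a replicate block, the implied totals as a term, all conditions in a single fit, and leaving out each library.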

Additional observations from a re-analysis of the deposited data

Results flagged for a closer look

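The response of SNAI1 to the mimic differed between the cell lines, as tested by the interaction of cell line and mimic. The log2 response of MDA-MB-231 cells was below that of T47D cells by -1.31 (edgeR's quasi-likelihood test, adjusted p = 0.00862), with GFOGER below IKVAV in every MDA-MB-231 library and overlapping libraries in T47D cells. With the implied library totals as a term the difference was -1.14 (adjusted p = 0.0618), and it did not pass when tested against 2-fold (adjusted p = 1), in a range of 0.000978 to 1 over the alternatives.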

How the results depend on the processing

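Over all comparisons and settings other than leaving out a library, the number of members called stayed within 1.5 times in 37 fits and moved further in 10. In MDA-MB-231 cells 1 member was called between the mimics, and the number was 2 with upper-quartile normalization (CDH1 added) and with all 4 conditions in one fit (GRHL2 added, -1.06, adjusted p = 0.0293), 5 at any fold and 0 with the 2-fold threshold inside the test. Between the lines, 9 were called with either mimic and 2 with at least 10 counts in every library, which removes genes near 0 in 1 line. For the interaction, 1 was called, and the number was 2 with DESeq2 and without a filter (GRHL2 added in each). It was 3 at any fold and 0 with the 2-fold threshold inside the test. Leaving out each library gave 1 to 4 (mimics, MDA-MB-231), 0 (mimics, T47D), 9 (lines, GFOGER), 9 to 10 (lines, IKVAV) and 1 to 2 (interaction). Replicate numbers did not pair the libraries: deviations of the 15 same-numbered pairs correlated at -0.184 to 0.0429 across genes, and 0 of 11 libraries correlated best with their own number. With the replicate block 1, 0, 9, 9 and 1 members were called in the order above. ZEB2 between the mimics in MDA-MB-231 cells passed at any fold with the block (0.27, adjusted p = 0.0394).

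Reversals of sign were all of values that did not pass. Between the mimics in T47D cells GRHL2 was 0.0055 with library size alone, 0.0052 without a filter, 0.0031 with the replicate block and 0.16 with the implied totals as a term, where SNAI1 was -0.23, TWIST1 0.14 and ESRP1 -0.11. There leaving out a library gave -0.047 to 0.22 for VIM, -0.14 to 0.24 for SNAI1, -0.39 to 0.26 for TWIST1 and -0.076 to 0.062 for GRHL2. For the interaction TWIST1 was -0.33 with the implied totals as a term, and leaving out a library gave -0.27 to 0.39 for TWIST1, -0.58 to 0.92 for CDH2, -0.24 to 0.91 for SNAI2 and -0.99 to 0.17 for ZEB2. The cause was not tested. Depth limits ZEB1, ZEB2, SNAI2 and CDH2 in T47D cells and GRHL2, ESRP1 and TWIST1 in MDA-MB-231 cells, and 2 libraries limit MDA-MB-231 cells with IKVAV.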
